A study of Caenorhabditis elegans with 6 samples.

Results

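The sra, srab, srb and sre genes are families of chemoreceptors of Caenorhabditis elegans, and all features of the deposited table whose symbol is one of these names followed by a number were taken as members. There were 127 such genes among 41862 features, namely 35 sra, 23 srab, 15 srb and 54 sre genes. RNA was sequenced from immunoprecipitated neuronal nuclei of L1 larvae, the first larval stage, in 3 control and 3 mutant libraries. Control animals (strain OH16748, genotype wildtype) carried the integrated transgene otIs790, which the labels call UPN INTACT; INTACT tags the nuclei of a selected cell population so that they can be captured. Mutant animals (strain OH17055) carried UPN INTACT and were labelled null for ceh-48, ceh-44 and ceh-38 and also for ceh-39, ceh-21 and ceh-41, which together encode 6 CUT homeodomain transcription factors. Both strains were thus in the same tagging background, each genotype is a single strain, and the labels do not say whether the libraries of a group came from separate cultures, so the p-values below measure the spread between these libraries.

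Chemoreceptors of these families are G protein-coupled receptors that sit mainly in the sensory cilia of amphid and phasmid neurons. Ligand binding is passed on through G protein alpha subunits to cyclic GMP signalling and its channel, or to TRP channels. Each sensory neuron class of the worm expresses many receptor genes, and many of these genes lie next to relatives in the genome. The sra, srab, srb and sre families together form the Sra superfamily. A few members have a known place of expression or role: sra-6 is used as a marker of the ASH and ASI neurons, sra-7 and sra-9 of ASK, sra-11 of the AIY interneuron, srb-6 of ASH, ADL and phasmid neurons, and sre-1 of ADL. The gene sra-13 is expressed in the olfactory neurons AWA and AWC, and srb-13 and srb-16 have been linked to sperm guidance. For most of the others no ligand is known.

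Recovered depth was 15500882 to 20844986 reads per library, of which the members held 6300 to 13535 reads. Of the 6 targeted genes, which check the labels, 5 fell in the libraries labelled mutant and ceh-44 rose. The fallen genes differed in how much was left. Mean normalized counts in controls and in the libraries labelled mutant were 834 and 17.2 for ceh-39 and 171 and 58.1 for ceh-41. They were 3728 and 2155 for ceh-38 and 1326 and 586 for ceh-48. The normalized counts of ceh-21 were 832, 1098 and 887 in controls and 0, 47.95 and 3.38 in the libraries labelled mutant, while those of ceh-44 were 11352, 8117 and 9221 against 19055, 15678 and 15760. The labels do not say which exons each allele removes, so a gene-level count checks a null label only in part, and ceh-44 goes against it by level; mutant below means labelled mutant. Of 12 sensory neuron markers, 11 passed the filter on level described next, and none was at 0 in all libraries. No unpurified input is among the 6 libraries, so these levels cannot show whether neurons were enriched. The 8 muscle markers were also abundant, at summed normalized counts of 170400 to 197200 in controls and 169600 to 210900 in mutants, against 18780 to 20550 and 10720 to 11810 for the sensory neuron markers and 846300 to 1064000 and 418500 to 766400 for the 30 pan-neuronal genes. Transcripts of muscle genes were thus present in the immunoprecipitated fraction.

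Of the 127 genes, 91 averaged 10 or more normalized counts over the 6 libraries and entered the test, limma on log2(normalized count + 1) fitted over all 17900 features above that mean. Past a Benjamini-Hochberg adjusted p of 0.05, 38 of the 91 fell (41.8%) and 1, srab-9, rose. Over all features tested, 18.1% were called, 10.5% as lower and 7.56% as higher. The difference was below 0 for 80 of the 91 members (87.9%), against 51.2% of all features. The median log2 difference, mutant minus control, was −1.10 over the tested members and −0.02 over all features. Groups did not overlap, with every mutant library below every control library, for 59 members (64.8%, against 20.4% of all features), and every mutant library was above every control library for 1 (1.10% against 19.5%). Of the 91 tested genes, 77 had a mean of at least 10 in both groups, and 34 of these fell and 1 rose. The share of all features under that stricter filter is not given, since the 10.5% above is for the mean over all 6 libraries.

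**Figure D1:**
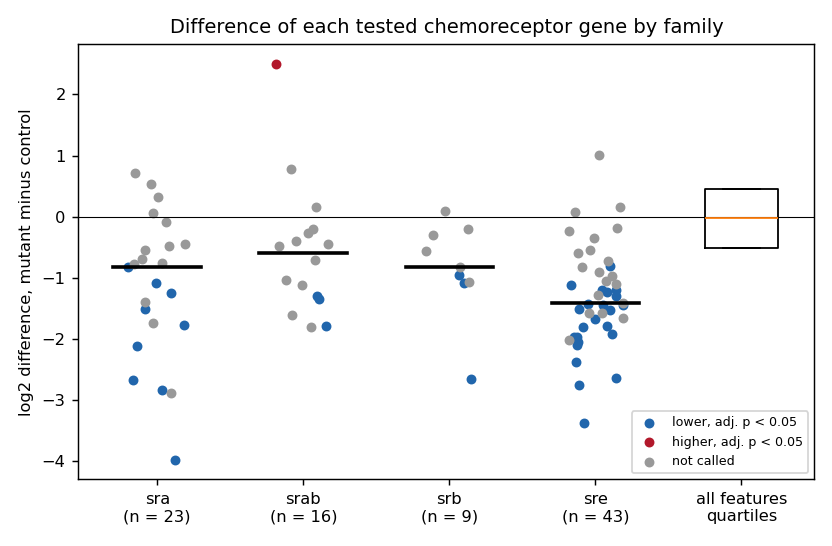
Log2 difference (mutant minus control, on log2(normalized count + 1)) of each tested member by family, with points coloured by the limma call and black bars at the family medians. The box shows the quartiles and median of all 17900 tested features; the sre median lies at −1.42, the srab gene srab-9 lies alone at 2.50.

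The families differed in how many members fell, though no difference between families was tested. In sre, 23 of 43 tested genes fell and 0 rose, with a median log2 difference of −1.42; 31 were lower and 0 higher at an unadjusted limma p under 0.05, which 19% of all features passed as lower and 15.8% as higher. In sra, 9 of 23 fell and 0 rose, with a median of −0.82 and with 15 lower and 0 higher at an unadjusted p under 0.05. In srb, 3 of 9 fell and 0 rose, with a median of −0.82 and with 5 lower and 0 higher at an unadjusted p under 0.05. In srab, 3 of 16 fell and 1 rose, with a median of −0.59 and with 6 lower and 1 higher at an unadjusted p under 0.05. In edgeR and DESeq2 fits of the recovered reads 35 and 46 members were lower, where 9.65% and 12.4% of all features were lower, and srab-9 was again the only member that rose, where 8.84% and 11.2% of all features rose. Leaving out 1 library moved the family counts: 3 sra genes fell without control replicate 1 or 2 and 5 without control replicate 3, 1 srab gene fell without control replicate 2 and 5 without mutant replicate 1, 1 srb gene fell without control replicate 3 or mutant replicate 3, and 12 sre genes fell without control replicate 2. With the replicate number as a block, 5 srab genes fell.

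Summed over all members of a family, tested or not, the sre total was 5814, 7244 and 5996 normalized counts in control replicates 1, 2 and 3 and 2878, 2728 and 3030 in the mutant replicates. For sra the control total of 2069 ± 143 stood against a mutant total of 1221 ± 147 (SD, n = 3 libraries a group). For srb these totals were 1412 ± 70.5 and 800.1 ± 60.3 (SD, n = 3 libraries a group). In these 3 families every mutant total lay below every control total. For srab they were 3342 ± 335 and 2455 ± 580 (SD, n = 3 libraries a group), and there the groups overlapped, since mutant replicate 1 at 3089 lay above control replicate 3 at 3075. In bulk RNA such as this, fewer cells that express a receptor and less receptor RNA per cell cannot be told apart.

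**Figure D2:**
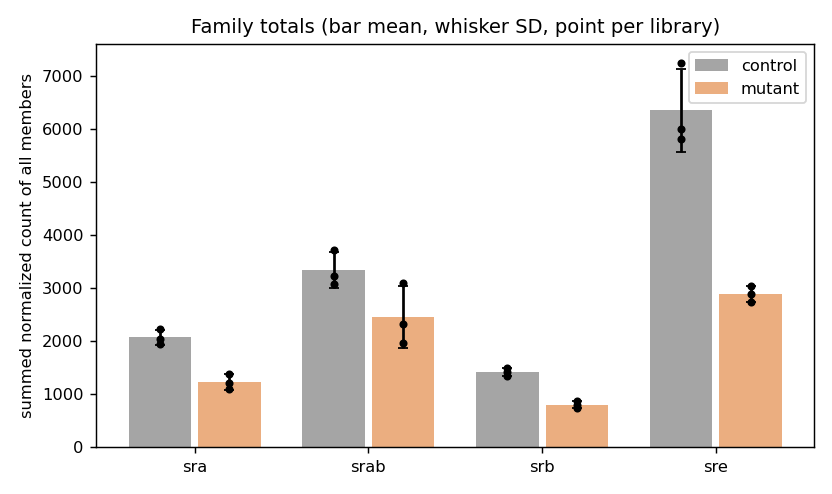
Summed normalized counts of all members of each family, tested or not, with bars at the group mean, whiskers of 1 SD and a point for each of the 3 control and 3 mutant libraries. The sre totals are 5814 to 7244 in controls and 2728 to 3030 in mutants; the srab groups overlap.

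The members were mostly low in level, with means of the tested genes from 10.2 to 739.9 normalized counts. Calls were concentrated at middle levels. Of 29 members with a mean of 100 to 300, 18 fell (62.1%), against 12.7% of the 3464 features at that level. Of 30 members with a mean of 30 to 100, 15 fell (50%) and 1 rose, against 8.98% and 8.07% of 4075 features. Of 26 members with a mean of 10 to 30, 4 fell (15.4%), against 4.11% of 4036 features. Of the 6 members at 300 or more, only srab-24 fell (16.7%), against 14.4% of the 6325 features at that level. The median log2 difference of the members did not follow the share called. It was −1.11 at a mean of 10 to 30, −1.32 at 30 to 100, −1.08 at 100 to 300 and −0.336 at 300 or more. For all features the medians at these levels lay between −0.0757 and 0.082.

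**Figure D3:**
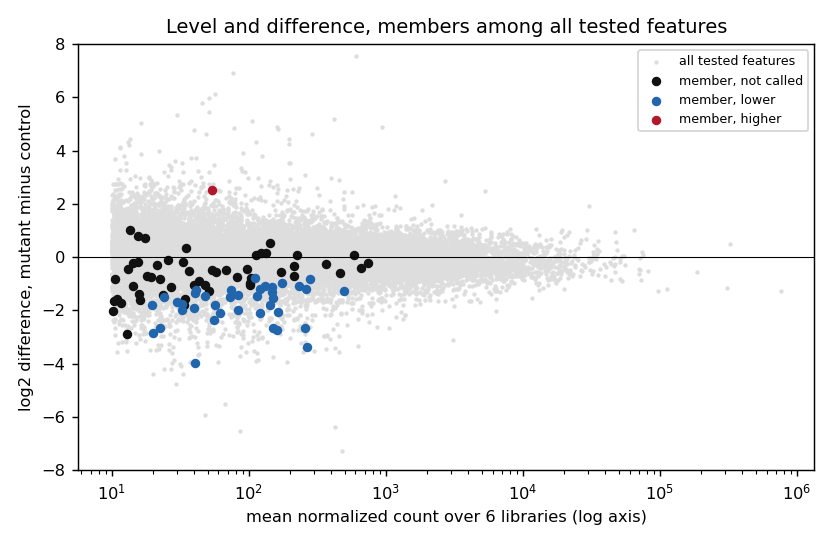
Mean normalized count over the 6 libraries (log axis) against the log2 difference, mutant minus control, for all 17900 tested features (light grey) and the 91 tested members (black, not called; blue, lower; red, higher). Blue points dominate between 30 and 300 normalized counts, with 15 of 30 members from 30 to 100 and 18 of 29 from 100 to 300.

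Among the sre genes, a family whose ligands are largely unknown, sre-45 had the smallest adjusted p of all members. It was at 456, 516 and 495 normalized counts in the control replicates and 49.3, 45.5 and 43.05 in the mutant replicates. The replicates of each group lay close together and the groups were far apart. The control mean was 10.6 times the mutant mean, a log2 difference of −3.38 (SE 0.20; limma, adjusted p 5.88e-05 by Benjamini-Hochberg, as for every limma p here). In the WBcel235 annotation, on chromosome II, an exon of sre-45 overlaps one of snx-14 on the other strand. The gene snx-14, with a mean of 3163 normalized counts, differed by 0.09 (limma adjusted p 0.736).

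The ADL marker sre-1 was at 380, 577 and 378 in controls and 53.1, 79.7 and 76.8 in mutants. All 3 mutant libraries were far below the lowest control. The log2 difference was −2.65 (SE 0.26, limma adjusted p 0.000294). Its coding neighbours on chromosome II, B0495.9 and cpna-5, differed by −0.66 and −0.21 and did not pass (limma adjusted p 0.0523 and 0.459).

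The neighbours sre-42 and sre-41 on chromosome II both fell. For sre-42 the values were 173, 322 and 356 in controls and 31.6, 46.3 and 41.4 in mutants, a log2 difference of −2.76 (SE 0.31, limma adjusted p 0.000708). For sre-41 they were 84.9, 125 and 93.2 against 20.2, 21.1 and 27.01, a difference of −2.09 (SE 0.30, limma adjusted p 0.00211). The btb-14 gene, which overlaps sre-42 on the other strand, fell as well, by 1.03 on the log2 scale (limma adjusted p 0.0289), so reads of this pair may be mixed if strand was not used in counting.

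Of the other sre genes with the smallest adjusted p, sre-15 was at 205, 322 and 271 in controls and 56.9, 54.5 and 77.7 in mutants, a log2 difference of −2.05 (SE 0.26, limma adjusted p 0.00102). The gene sre-29 was at 122, 99.1 and 64.1 against 15.2, 17.9 and 17.7, a difference of −2.38 (SE 0.34, limma adjusted p 0.00200). In both, the groups did not overlap. The remaining genes named by their adjusted p were sre-6, sre-20, sre-44, sre-53 and sre-14, with log2 differences of −1.81, −1.53, −1.97, −1.79 and −1.20 and limma adjusted p from 0.00200 to 0.00771. Of these, sre-6, sre-20 and sre-44 overlap F28H7.8, ZC455.1 and zip-3 on the other strand, and none of those 3 partners passed (limma adjusted p 0.741, 0.112 and 0.701).

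Not every sre gene was lower. The family's gene with the highest mean, sre-4, was at 650.1, 581 and 482 in controls and 696, 514 and 594 in mutants, with overlapping groups. Its log2 difference was 0.07 (SE 0.19, limma adjusted p 0.807). The sre gene with the largest positive difference was sre-12, at 1.01 (SE 0.56, limma adjusted p 0.231), with 4.36, 17.7 and 6.80 in controls and 18.96, 14.6 and 19.4 in mutants. The share of the sre total held by sre-4 was 11.2% and 8.02% in control replicates 1 and 2 and 18.9% to 24.2% in the mutants, where it was the highest sre gene in every library; in control replicate 3 the highest was sre-23.

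**Figure D4:**
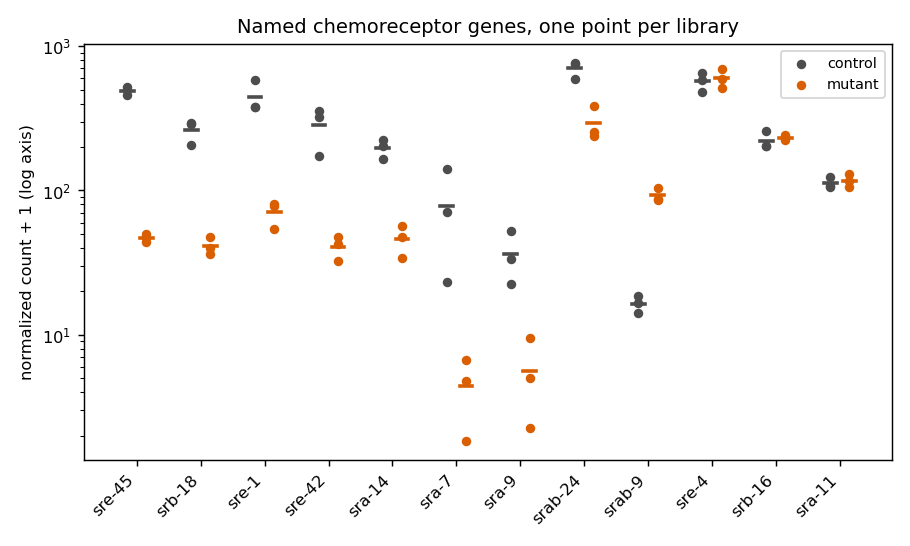
Normalized count + 1 (log axis) of 12 named members in each of the 3 control (grey) and 3 mutant (orange) libraries, with short lines at the group means. The groups lie apart for the first 9 genes, of which srab-9 is higher in the mutant, and overlap for sre-4, srb-16 and sra-11.

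Among the sra genes, the ASK marker sra-7 had the largest log2 difference of all members. It was at 69.7, 139 and 22.3 normalized counts in the controls and 3.79, 5.69 and 0.84 in the mutants, so the controls themselves spread widely while every mutant library was far lower. The log2 difference was −3.98 (SE 0.73, limma adjusted p 0.00612). Its mutant values correspond to 3, 7 and 1 reads, so the size of the fall is loosely fixed. The other ASK marker, sra-9, was at 32.7, 51.1 and 21.4 in controls and 1.26, 4.06 and 8.44 in mutants, a difference of −2.83 (SE 0.63, limma adjusted p 0.0148). The limma adjusted p of sra-9 was 0.0605 when control replicate 1 was omitted and 0.0808 when control replicate 2 was, so that its call was lost.

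The gene sra-14 on chromosome II was at 163, 224 and 203 in controls and 55.6, 33.3 and 46.4 in mutants. Its groups did not overlap, with a log2 difference of −2.12 (SE 0.27, limma adjusted p 0.00118). The highest sra gene by mean, sra-37 on the X chromosome, was at 339, 377 and 357 against 246, 184 and 181, a difference of −0.82 (SE 0.20, limma adjusted p 0.0203). That call was lost without any 1 of the 3 control libraries or without mutant replicate 3 (limma adjusted p 0.0596 to 0.0821).

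The ASH and ASI marker sra-6 did not pass the threshold. It was at 236, 215 and 341 in controls and 116, 172 and 202 in mutants, every mutant below every control, with a log2 difference of −0.70 (SE 0.27, limma adjusted p 0.0979). With the replicate number as a block it passed (limma adjusted p 0.0406). The AIY marker sra-11 showed overlapping groups, at 106, 123 and 105 against 129, 104.03 and 115, and a difference of 0.06 (SE 0.22, limma adjusted p 0.874). The neighbour sra-12 was at 189, 186 and 162 against 91, 80.5 and 80.2 and fell by 1.08 on the log2 scale (limma adjusted p 0.00873). Whether the differences of these 2 genes differ from each other was not tested. The gene sra-13 had a mean of 8.85 over the 6 libraries and was not tested; it was at 7.62, 5.21 and 14.6 against 8.85, 0 and 16.9. The sra gene with the largest positive difference was sra-20, at 0.71 (SE 0.64, limma adjusted p 0.452).

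Among the srb genes, srb-18 on chromosome V fell most. It was at 207, 289.95 and 287 in controls and 46.8, 39.01 and 35.5 in mutants. The control mean was 6.47 times the mutant mean, and the log2 difference was −2.66 (SE 0.25, limma adjusted p 0.000273). Its neighbour srb-19 was at 181, 175 and 265 against 134, 130.04 and 151, with non-overlapping groups, but did not pass (log2 difference −0.55, SE 0.23, limma adjusted p 0.118). The family's highest gene by mean, srb-17, was at 262, 364 and 315 against 187, 99.97 and 167 and differed by −1.08 (SE 0.27, limma adjusted p 0.0220). The srb-17 call was lost in 3 of the 6 fits that omit a library, with a limma adjusted p of 0.0901 when control replicate 2 was omitted, 0.0684 for control replicate 3 and 0.0526 for mutant replicate 3, and also without a variance trend (0.0562).

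The srb genes linked to sperm guidance did not pass. The gene srb-16 was at 256, 201 and 202 in controls and 234, 239.8 and 221 in mutants, with overlapping groups and a log2 difference of 0.08 (SE 0.19, limma adjusted p 0.786). The gene srb-13 was at 33.8, 36.5 and 35.9 against 24.02, 33.3 and 36.3, a difference of −0.20 (SE 0.33, limma adjusted p 0.701). The sensory neuron marker srb-6 was at 22.9, 30.3 and 32.0 against 20.2, 8.94 and 20.3, with every mutant below every control, and also did not pass (log2 difference −0.82, SE 0.44, limma adjusted p 0.214). The RefSeq table for WBcel235 lists srb-2, srb-7 and srb-8 as pseudogenes, and srb-8 was the only member with 0 reads in all 6 libraries.

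Among the srab genes, srab-24 was the member with the highest control level per kilobase of annotated exon, at 679 normalized counts per kilobase in controls and 281 in mutants. In normalized counts it was at 751, 763 and 588 in controls and 382, 254 and 236 in mutants. Its groups did not overlap, with a log2 difference of −1.29 (SE 0.22, limma adjusted p 0.00475). The next genes by control level per kilobase were srab-14 and srab-12, at 614 and 598 in controls and 549 and 471 in mutants. Neither passed: srab-14 was at 922, 741 and 681 normalized counts in controls against 948, 478 and 669 in mutants (log2 difference −0.21, SE 0.25, limma adjusted p 0.590). For srab-14 the mutant libraries enclosed all controls, with replicate 1 highest and replicate 2 lowest. The largest negative difference of an srab gene was that of srab-18, at −1.81 (SE 0.66, limma adjusted p 0.0831). That gene was at 32.7, 49.0 and 66.0 in controls and 12.6, 4.06 and 37.1 in mutants, with overlapping groups. It passed with the replicate block (limma adjusted p 0.0329) and did not with edgeR (adjusted p 0.161).

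The only member that rose was srab-9 on chromosome V. It was at 13.1, 17.7 and 15.5 normalized counts in controls and 84.7, 86.96 and 103.8 in mutants, so the lowest mutant library was well above the highest control. The log2 difference was 2.50 (SE 0.31, limma adjusted p 0.000945). It passed in every fit that left out 1 library (limma adjusted p at most 0.00893), with edgeR (adjusted p 0.00126) and with DESeq2 (adjusted p 2.63e-09). In the annotation srab-9 lies on the minus strand, with srab-10, srab-11, srab-6 and srab-7 next by rising coordinate on the same strand. In the direction of transcription these genes come before srab-9. None of these rose: srab-10 and srab-6 were under the mean of 10, with at most 5.06 normalized counts in any library, srab-11 differed by −0.71 (limma adjusted p 0.269) and srab-7 by −1.12 (limma adjusted p 0.187). How the authors treated reads shared between such close relatives is not given in the sources used here.

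**Figure D5:**
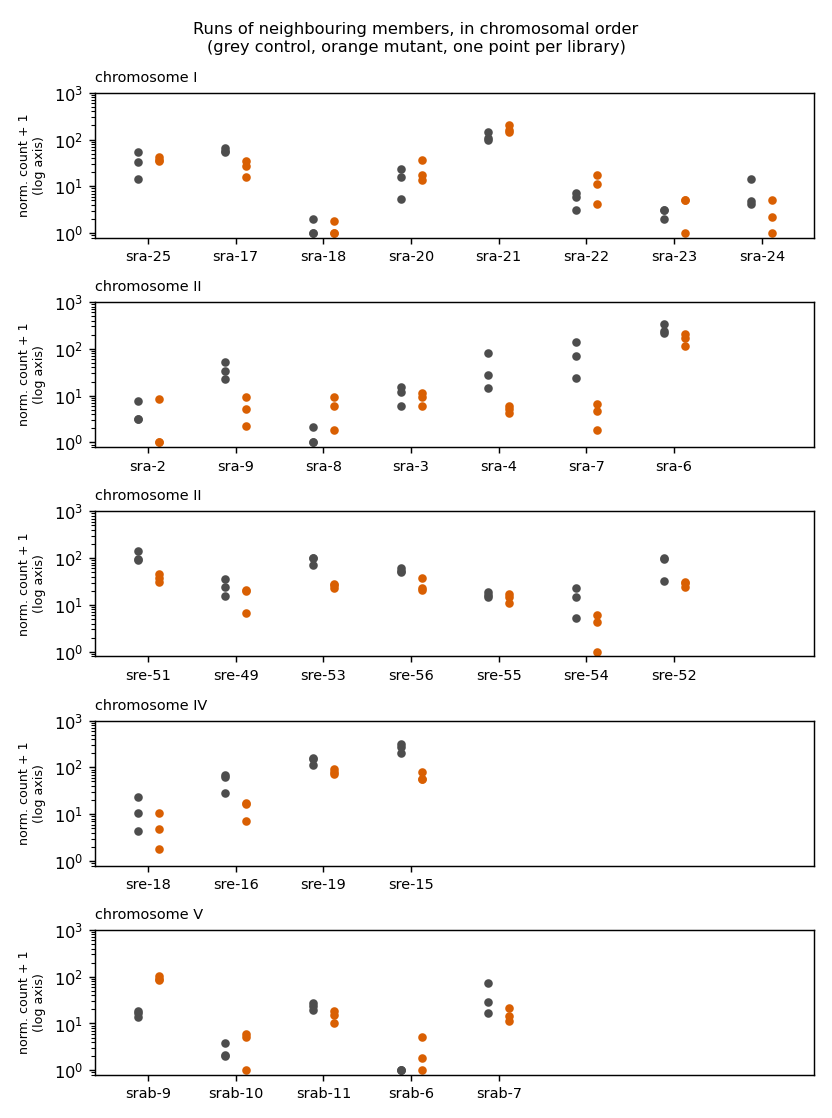
Normalized count + 1 (log axis) of members that are direct neighbours among coding genes in the WBcel235 annotation, in chromosomal order, for 5 runs, with a point for each control (grey) and mutant (orange) library. Genes that fell stand next to tested genes with overlapping groups in the run on chromosome I and in the sre run on chromosome II. In the sra run on chromosome II the genes with overlapping groups, sra-2, sra-8 and sra-3, were too low to be tested. In the lowest run srab-9 alone is higher in the mutant.

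Neighbouring members were compared by their own values, with the runs below chosen after their values were seen. Of the tested members, 53 lay next to another member, of which 23 fell (43.4%) and 1 rose, with a median log2 difference of −1.12. Of the other 38, 15 fell (39.5%), with a median of −1.03. The run sra-2, sra-9, sra-8, sra-3, sra-4, sra-7 and sra-6 on chromosome II held 4 tested genes, of which sra-9, sra-4 and sra-7 fell, with log2 differences of −2.83, −2.67 and −3.98. The gene sra-4 had 4, 4 and 5 reads in the mutant replicates, and its call (SE 0.65, limma adjusted p 0.0216) was lost when control replicate 1 (0.0696), control replicate 2 (0.103) or mutant replicate 3 (0.0584) was omitted. In that run sra-8 was at 1.09, 0 and 0 in controls and 5.06, 0.81 and 8.44 in mutants, too low to be tested. On chromosome IV, sre-16, sre-19 and sre-15 are neighbours and all 3 fell, with log2 differences of −1.97, −0.80 and −2.05, while the adjacent sre-18 was not tested. The sre-19 call (limma adjusted p 0.0482) was lost with edgeR (adjusted p 0.063), without a variance trend (0.0612) and in 5 of the 6 fits that omit a library, all but that omitting mutant replicate 2 (limma adjusted p 0.068 to 0.152). The sre-16 call (limma adjusted p 0.0246) was lost when control replicate 2 (0.102), control replicate 3 (0.1004) or mutant replicate 3 (0.0513) was omitted. On chromosome II, sre-40 and sre-39 both fell, by 1.12 and 1.44 on the log2 scale (limma adjusted p 0.0139 and 0.0240). Both calls were lost when control replicate 2 (limma adjusted p 0.0661 for sre-40 and 0.099 for sre-39) or control replicate 3 (0.056 and 0.0907) was omitted.

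The run of 8 sra genes on chromosome I had a different composition. Of its 4 tested genes, sra-17 fell, with a log2 difference of −1.25 (limma adjusted p 0.0394), and the others, sra-25, sra-20 and sra-21, had positive differences of 0.32, 0.71 and 0.54 that did not pass (limma adjusted p 0.656, 0.452 and 0.158). The sra-17 call was lost with edgeR (adjusted p 0.0575) and in 5 of the 6 fits that omit a library, all but that omitting mutant replicate 2 (limma adjusted p 0.0502 to 0.134). The gene sra-21 was at 98.01, 104.3 and 147 in controls and 143, 156 and 208 in mutants, with overlapping groups. By chromosome, 23 of 50 tested members on chromosome II fell, 7 of 9 on IV, 5 of 23 on V, 2 of 3 on X and 1 of 6 on I. Over all features of all chromosomes 10.5% fell, and the share for each chromosome is not given. Family and chromosome went together in part, with 33 of the 54 sre genes on II and 21 of the 23 srab genes on V. No difference between chromosomes was tested.

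The 36 members under the mean of 10 held means up to 9.97 normalized counts. In a fit without a filter on level, 35 of them had a value, 22 with a difference below 0 and 13 above, and none passed limma's adjusted threshold in either direction; at an unadjusted p under 0.05, 2 were lower and 1 higher. Just above the filter were sre-38, with a mean of 10.2 and a difference of −2.02 (limma adjusted p 0.133), and sre-33, with a mean of 10.5 and a difference of −1.65 (limma adjusted p 0.294). Just below it were srb-12, with a mean of 9.97, and srab-20, with a mean of 9.45. A further 16 tested members had a limma adjusted p between 0.05 and 0.1, all 16 with a difference below 0. The share of all features in that range, and their direction, is not given.

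The libraries differed in how they placed the members. Control replicate 2 was the highest control for 52 of the 91 tested members, and the mean log2 value of the tested members was 6.22, 6.48 and 6.12 in control replicates 1, 2 and 3 and 5.12, 5.03 and 5.40 in the mutants. Without control replicate 2, 18 of the 38 calls remained; without control replicates 1 and 3, 25 and 23 remained, and without mutant replicates 1, 2 and 3, 35, 36 and 25. Of the 38, 17 passed in each of the 6 fits: sra-7, sra-12, sra-14, srab-24, srb-18, sre-1, sre-6, sre-14, sre-15, sre-20, sre-29, sre-41, sre-42, sre-44, sre-45, sre-51 and sre-53. The share of all features that passed in each of the 6 fits is not given. With the replicate block, 49 members fell, all 38 included, and 15.2% of all features were lower.

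The other chemoreceptor families of the table were set beside these as a reference. In the str superfamily (str, srd, srh, sri and srj), 112 of 301 tested genes were lower (37.2%) and 7 higher, with a median log2 difference of −0.97. In the srg superfamily, 67 of 193 were lower (34.7%) and 4 higher, with a median of −0.87. In srw, srbc, srsx, srz and srr together, 58 of 164 were lower (35.4%) and 3 higher, with a median of −0.89. The share of lower genes among the sra, srab, srb and sre members, 41.8%, stands beside these, and the difference was not tested.

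Of 20 genes of G protein, cyclic GMP and TRP channel signalling, which act downstream of chemoreceptors, 13 fell, 0 rose and 7 did not pass, with a median log2 difference of −0.79. Those that fell included the G protein alpha subunits gpa-15 (−1.59), gpa-11 (−1.37), gpa-1 (−1.34), gpa-3 (−1.33) and odr-3 (−0.995), the regulator of G protein signalling rgs-3 (−1.43), the guanylyl cyclase odr-1 (−1.02) and the cyclic nucleotide-gated channel subunit tax-2 (−0.84), with limma adjusted p from 0.000714 to 0.0107. The kinase egl-4 differed by 0.22 and did not pass (limma adjusted p 0.494). Only 7 fell when control replicate 2 was omitted and 8 when mutant replicate 3 was.

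Of 11 genes of receptor folding and ciliary delivery, 6 fell and 0 rose, with a median log2 difference of −0.52. The gene odr-4, needed in the worm for delivery of some chemoreceptors to cilia, was at 965, 912 and 784 in controls and 578, 527 and 572 in mutants (log2 difference −0.66, SE 0.16, limma adjusted p 0.0224). Its partner odr-8 differed by −0.52 (limma adjusted p 0.0434). The largest fall was in kap-1, a non-motor subunit of the kinesin-II motor of cilia, at 756, 719.7 and 756 against 102, 176 and 117, a difference of −2.53 (SE 0.22, limma adjusted p 0.000237). The motor gene osm-3 differed by −0.37 and did not pass (limma adjusted p 0.210). Fewer fell in other fits: 2 with scaling to equal totals, 3 with centring on the median feature and 2 without a variance trend. When control replicate 1, control replicate 2 or mutant replicate 3 was omitted 1 fell, and 3 when control replicate 3 was.

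Of 20 regulators of chemosensory neurons or of chemoreceptor expression, 7 fell and 0 rose, and 12 fell with the replicate block; the median log2 difference was −0.705. Those that fell were mls-2 (−1.60), ceh-36 (−1.27), ttx-1 (−0.96), ttx-3 (−0.93), ceh-10 (−0.83), ceh-37 (−0.74) and unc-86 (−0.55), all transcription factors of neuron identity, with limma adjusted p from 0.00500 to 0.0334. With scaling to equal totals 3 fell, and when control replicate 1, 2 or 3 or mutant replicate 3 was omitted 3, 2, 3 and 4 fell.

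Marker lists of cells that the fraction could hold moved as follows, and their part in the fall of the members was not tested. Of 11 tested sensory neuron markers, 7 fell, 0 rose and all 11 were below 0, with a median log2 difference of −0.84. This list shares 6 genes with the signalling list, which hold 5 of its 7 calls, and 2 uncalled genes with the regulator list. Of the 30 pan-neuronal genes 8 fell and 0 rose, and 17 fell with the replicate block, with a median of −0.54. The gene unc-119, which fell, is counted both there and in the list of receptor folding and ciliary delivery. None of the 8 muscle markers passed limma's threshold in either direction, with a median of −0.06; the count was also 0 with the replicate block, with edgeR and at an unadjusted p under 0.05. Of the 8 intestine markers, 0 fell and 1, vit-6, rose; with the replicate block 1 fell and 2 rose. Of the 8 germline markers, 2, glh-2 and mex-5, rose, and 5 rose with the replicate block, and the list's summed normalized counts were 617 to 735 in controls and 1088 to 1352 in mutants. Of the 6 tested epidermis markers, elt-1 fell and bli-1 rose, with sums of 1556 to 1771 and 1278 to 1668. None of the 7 tested glia markers passed with limma or edgeR, 1 was lower at an unadjusted p under 0.05 and 2 fell with the replicate block, with sums of 1403 to 2073 and 989.9 to 1408.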

How the data were processed

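The authors deposited 1 table of depth-normalized signal per gene, named as DESeq2 normalized counts, which are read counts scaled by 1 size factor for each library. STAR, featureCounts and DESeq2 are named without version in the submitters' processing notes; genome build, annotation, strand use and treatment of multi-mapping reads are not given in the sources used here. Every value was a whole multiple of 1 step per library (100% within 0.01 reads, largest deviation 0.000828), and the reads so recovered served edgeR 4.0.16 and DESeq2 1.42.0 as alternatives. In normalized counts, 3 reads were worth 2.44 to 3.79 depending on the library, a floor for counting error only. edgeR called 1727 features lower and 1582 higher, DESeq2 2214 and 2011.

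Differences were tested on log2(value + 1) by limma (version 3.58.1, under R 4.3.3) with a mean-variance trend and group as factor, over the 17900 features with a mean of at least 10, with Benjamini-Hochberg adjustment over all of them and a threshold of 0.05; this scale understates changes of low genes. The fits were also run on simulated counts, with changes placed only in features with a mean of at least 50. No replicate effect was simulated. That run therefore says nothing on changes of members below that level or on deviations shared by replicate number. Libraries were grouped and numbered by their titles. Same-numbered libraries deviated together from their group means (correlations 0.254, 0.196 and 0.146 across features for numbers 1, 2 and 3, from the replicate numbers in the titles), so the fit with a replicate block is given where it changes a call or moves a count by over 1.5 times.

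Members and lists were chosen with earlier results of these data known. Named were the 15 members with the smallest adjusted p that fell and the only 1 that rose. Each family's highest member and its largest difference in each direction were also named. So were 9 members known from earlier worm work and the 2 members on each side of the filter. Of the list genes past the threshold, only some were named. Others named were chosen after their values were seen. Ensembl and RefSeq annotations of WBcel235 were used for names, chromosome, exon length, overlaps and neighbours only. By symbol 124 of the 127 members matched Ensembl, and the other 3 matched RefSeq. In that annotation 4 members overlap an exon of another gene on the same strand and 19 on the other.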

Additional observations from a re-analysis of the deposited data

How the results depend on the processing

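The member called higher, srab-9, passed in every alternative run, and no called member changed direction in any. The number of lower members was 17 at an adjusted p of 0.01 and 18 to 38 when 1 library at a time was omitted, with 25 for control replicate 1 and 18 for control replicate 2; these fits pooled the spread of both groups. It was 33 with no filter, 29 of 49 at a minimum mean of 50 and 31 with scaling to equal totals. It was 35 with edgeR, 46 with DESeq2 and 49 with the replicate block. Over all features, 1886 were lower in the main fit and 870 to 2515 when 1 library at a time was omitted (870 without control replicate 2). Lower features numbered 1652 with no filter, 1650 at a minimum mean of 50, 1357 with scaling to equal totals and 2719 with the replicate block. Without members that overlap an exon of another gene 29 of 72 were lower. Among members with a mean of at least 10 in both groups 34 of 77 were. Both alternatives were chosen after seeing the data. For them and for the adjusted p of 0.01 the share over all features is not given. The median log2 difference of the tested members was −0.86 with no filter, over 126 members, and −1.16 to −1.0 with 1 library omitted. Scaling to equal totals moved the median of all features to 0.15 and that of the members to −0.93, and the share of all called features that were lower from 58.2% to 39.1%. By family, the lower srab members numbered 5 with the replicate block and the lower srb members 1 without a variance trend. Of the uncalled members 3 changed sign with 1 library omitted: sre-4 ranged from −0.041 to 0.18 (−0.041 without control replicate 3, −0.036 without mutant replicate 1), the difference of sra-11 from −0.0207 to 0.13 (−0.0207 without mutant replicate 1) and srab-14 from −0.45 to 0.040 (0.040 without mutant replicate 2). The replicate block added 11 lower members and ended no member's call. The cause was not tested. Depth limits the folds of sra-4, sra-7 and sra-9, which had few reads in the mutant.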
